A study of Mus musculus with 56 samples.

Results

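The Nat8 cluster is a group of N-acetyltransferase genes that lie side by side on mouse chromosome 6, and 7 of its genes, Nat8, Nat8f1, Nat8f2, Nat8f3, Nat8f5, Nat8f6 and Nat8f7, were followed here among the 17027 genes of a kidney RNA-seq table. They were chosen because Nat8f5 had the largest rise under daytime feeding at ZT4 (zeitgeber time, hours after lights on), and the question was whether its neighbours shared that rise. The comparison at ZT4 is therefore given as a description with no test, and tests were made at the other times. Kidneys came from female C57BL/6J mice, 9 weeks old, kept under 12 h of light and 12 h of dark. Food was given for 7 days either only by day (daytime-restricted feeding, DRF) or only by night (nighttime-restricted feeding, NRF, the reference). Each regimen was sampled at ZT0, ZT4, ZT8, ZT12, ZT16, ZT20 and ZT24 with 4 mice per group, which made 14 groups and 56 libraries of poly(A) RNA.

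NAT8 is an enzyme of the endoplasmic reticulum that is abundant in the kidney proximal tubule. It adds an acetyl group to cysteine conjugates, the last step in making mercapturic acids, the form in which many foreign compounds that were first coupled to glutathione leave in urine. The mouse has a family of closely related genes in place of a single kidney gene, and what each copy acetylates is less well known than for NAT8 itself.

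All 7 genes lie on the minus strand of chromosome 6 between 85706727 and 85915687 (GRCm38, GENCODE M21), a stretch of 209 kb. From low to high coordinate they are Nat8f7 (start 85706727, end 85713205), Nat8f3 (85732513 to 85765754), Nat8f6 (85808024 to 85820954), Nat8f5 (85817218 to 85820972), Nat8 (85830388 to 85832082), Nat8f2 (85865422 to 85869158) and Nat8f1 (85910154 to 85915687). Nat8f5 overlaps the annotated span of Nat8f6 on the same strand and reaches 18 bases beyond it at the 5′ end. Of the coding sequences, 3 were near copies of each other, and the others were less alike, with 69.1% identity between Nat8f1 and Nat8f2. Those of Nat8f3, Nat8f6 and Nat8f7 were 99.1 to 99.6% identical to each other, whereas Nat8f5 was 79.4% identical to Nat8, 75.4% to Nat8f1, 73.1% to Nat8f2 and 67.5 to 67.7% to these 3. The first 60 coding bases are shown 5′ to 3′ from the start codon in GENCODE M21 transcripts, and capitals mark the bases that differ from Nat8f5. Nat8f1 begins at another codon and is not shown.
Nat8f5: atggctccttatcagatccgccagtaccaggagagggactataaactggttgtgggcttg
Nat8: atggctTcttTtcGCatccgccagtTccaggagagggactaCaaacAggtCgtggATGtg
Nat8f2: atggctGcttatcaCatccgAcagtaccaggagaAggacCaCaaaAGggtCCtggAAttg
Nat8f3: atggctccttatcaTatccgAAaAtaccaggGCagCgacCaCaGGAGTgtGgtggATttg
Nat8f6: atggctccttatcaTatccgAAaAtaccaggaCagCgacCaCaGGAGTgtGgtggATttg
Nat8f7: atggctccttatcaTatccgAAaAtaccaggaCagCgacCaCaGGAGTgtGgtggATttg
Nat8f6 and Nat8f7 are the same over these bases, Nat8f3 is nearly so, and Nat8f5 stands closer to Nat8, from which it differs at 11 of the 60 positions, than to Nat8f6, from which it differs at 16.

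These copies decide how far each gene can be read on its own. Of all stretches of 100 bases in its transcripts, the read length used, Nat8f7 shared 68.3% with another gene, Nat8f6 50.1% and Nat8f3 44.7%. The recovered reads of these 3 genes were whole numbers in only 13, 4 and 3 of the 56 libraries, while their sum was whole in 49 and their sum with Nat8 was whole in all 56. Reads had thus been split between Nat8f3, Nat8f6 and Nat8f7 in fractions, so each of them is uncertain alone, and their summed TPM is given beside them. Counts of members called take them as 3 genes, although they share reads. Only their summed reads are free of the split among these 3 genes, since the genes differ in length and a read counts for less TPM in Nat8f3. In the libraries where that sum was not whole, a part of the reads was also split with Nat8. Nat8f5 was read almost on its own: 4.17% of its stretches were shared, all with Nat8f6, and its reads were whole in 56 of 56 libraries, as were those of Nat8f1. Nat8 had whole reads in 49 libraries. Nat8f2 shared 6.78% of its stretches with Nat8f4, a further family gene that is no member here, and the reads of that pair summed to whole numbers in 56 libraries. For Nat8f1, 25.0% of stretches overlap Tprkb on the opposite strand. The labels describe no step that marks strand, so reads from that overlap cannot be told apart.

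The deposited values are compressed at high levels, so reads were recovered from them, and levels are given as TPM (reads per base of transcript, scaled to the same total in each library) computed from those reads, and differences and their standard errors (SE) are on the log2(TPM + 1) scale. All 7 genes were expressed in every library, with recovered reads from 10, for Nat8f5 in 1 NRF library at ZT4, up to 9329 for Nat8f1. Averaged over the 56 libraries, Nat8f1 was the most abundant at 551 TPM, followed by Nat8 at 183 and Nat8f6 at 154 TPM. Nat8f7 at 52.3, Nat8f5 at 40.3, Nat8f3 at 30.7 and Nat8f2 at 17.5 TPM were lower. All passed the minimum mean of 1 TPM, and 12157 genes were tested. Nat8f3, Nat8f6 and Nat8f7 were kept as members, while other genes whose reads were so rarely whole were not tested.

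**Figure D1:**
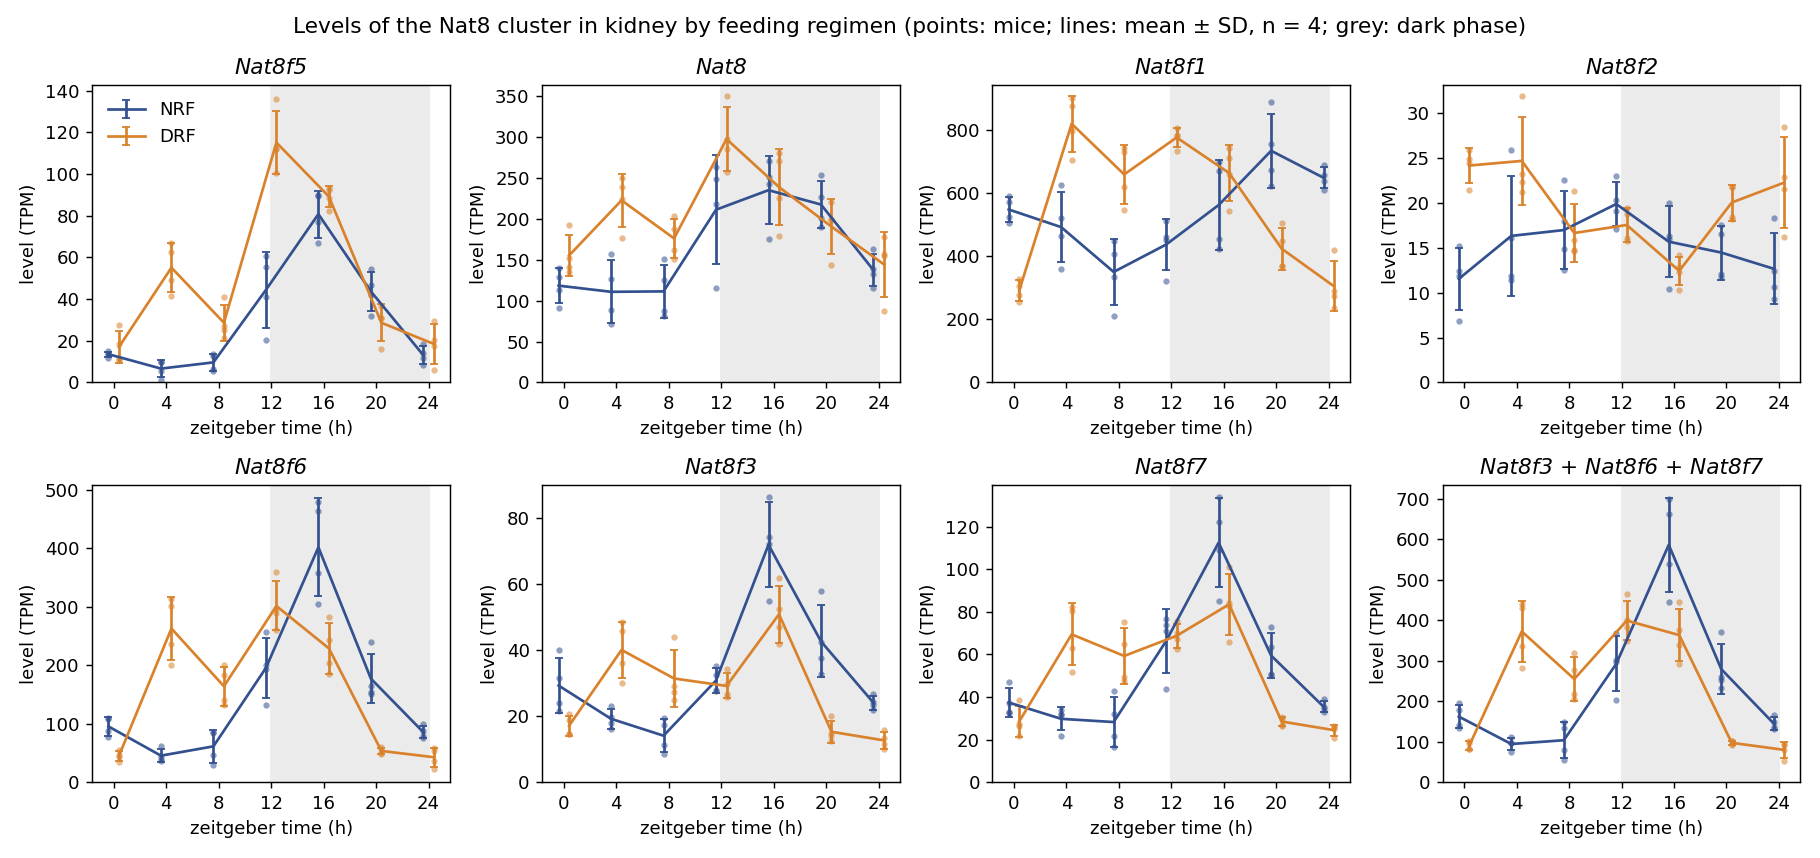
Level in TPM (vertical axis) by zeitgeber time in hours (horizontal axis) of each gene and of the sum of Nat8f3, Nat8f6 and Nat8f7, with points for single mice and lines for the mean ± SD of 4 mice, NRF in blue and DRF in orange. Nat8f5 under DRF has a mean of 55.1 TPM at ZT4, where NRF has 6.67 TPM, and a higher maximum of 115 TPM at ZT12.

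At ZT4 Nat8f5 was low under NRF and higher under DRF. In the NRF kidneys its levels were 9.75, 10.03, 1.39 and 5.51 TPM. In the DRF kidneys they were 62.8, 66.7, 41.7 and 49.1 TPM. All 4 DRF kidneys lay above all 4 NRF kidneys, and the means were 55.1 ± 11.7 and 6.67 ± 4.08 TPM (SD, n = 4), a ratio of 8.26. The difference of 3.07 ± 0.36 on the log2 scale (SE) ranked 1st of the 12157 genes tested, which is the value by which the gene was chosen. The next genes with a mean of at least 10 TPM were Per2, a clock repressor, at 2.76, and Nat8f6 at 2.51. Per2 and Nat8f6 lay just below Nat8f5 in that order, and Manf, which encodes a protein of the endoplasmic reticulum stress response, came after them at 1.78.

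The other 6 genes also had higher means under DRF at ZT4, by less. Nat8f6 was at 44.4, 61.6, 40.2 and 35.7 TPM under NRF and at 313, 301, 201 and 237 TPM under DRF, a ratio of means of 5.78. The summed level of Nat8f3, Nat8f6 and Nat8f7 went from 73.6 to 111 TPM under NRF to 283 to 441 TPM under DRF, a difference of 1.96 ± 0.21 on the log2 scale. Their summed reads, before any scaling to library size, were 1193 to 1726 under NRF and 4070 to 6957 under DRF. Within that sum, the differences of Nat8f7 (1.19 ± 0.20) and Nat8f3 (1.01 ± 0.20) were less than those of Nat8f6 (2.51 ± 0.25), but the split rests on the authors' allocation of reads. Nat8 differed by 1.05 ± 0.22, from 71.8 to 157 TPM under NRF to 177 to 250 TPM under DRF. Nat8f1, the most abundant member, differed by 0.76 ± 0.18, with 358 to 625 TPM against 705 to 900 TPM. Nat8f2 differed least, by 0.62 ± 0.21, and its 2 groups overlapped, at 11.4 to 25.9 TPM under NRF and 21.3 to 31.9 TPM under DRF. In 6 of the 7 genes the groups did not overlap, which held for 6.75% of all genes tested in the same direction. The median difference was 1.05 over the 7 genes and -0.07 over all genes tested. Since the cluster was chosen on this contrast, nothing is read from these counts.

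**Figure D2:**
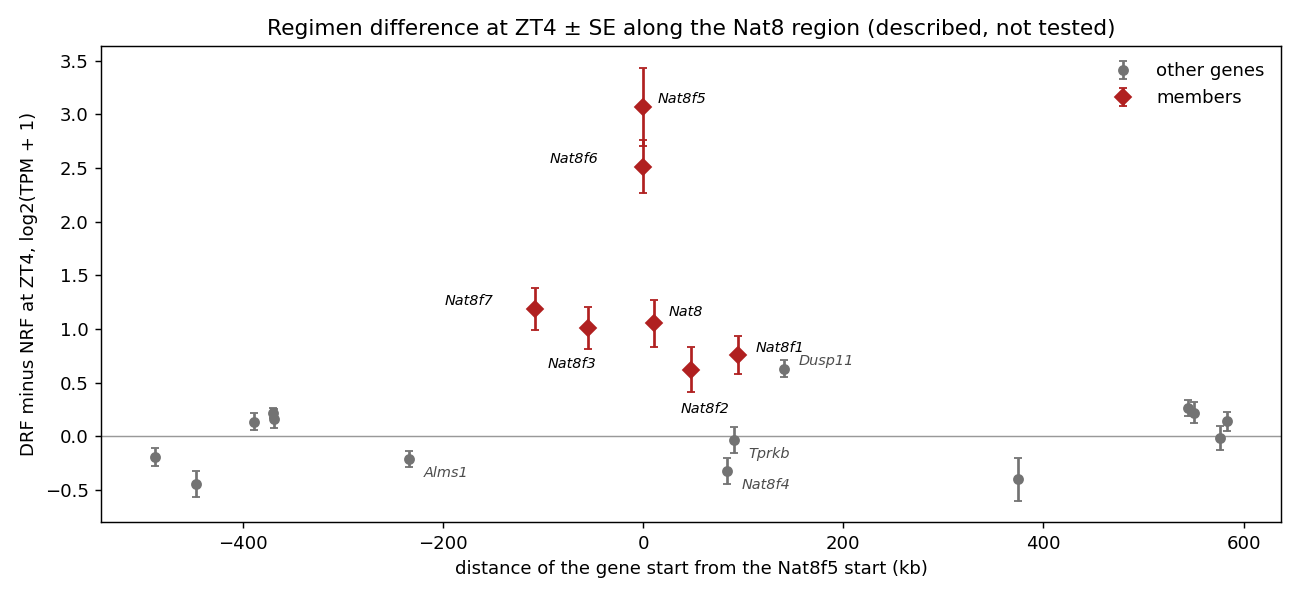
DRF minus NRF at ZT4 on the log2(TPM + 1) scale ± SE (vertical axis) against the distance in kb of each gene start from that of Nat8f5 (horizontal axis), for the 7 members (red diamonds) and the 14 other tested genes within 500 kb of the cluster (grey circles). Nat8f5 and Nat8f6 stand highest at 3.07 and 2.51, and the other genes lie between -0.44 and 0.63.

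The genes around the cluster are described at ZT4 in the same way, with no test. Nat8f5 was chosen as the largest difference there, so lower values around it were fixed in advance and nothing is read from them. The highest of the other genes, Dusp11 at 0.63, was level with the member Nat8f2 at 0.62. Within 500 kb of the outermost members the table held 16 other genes, of which 14 were tested. Their differences at ZT4 had a median of 0.06 and ran from -0.44 for Rab11fip5, an adaptor in vesicle recycling, to 0.63 for Dusp11, an RNA phosphatase gene whose position lies 141 kb from the Nat8f5 start. Nat8f4, which is located at 85899051 to 85904884 between Nat8f2 and Nat8f1, differed by -0.32 ± 0.12, opposite in sign to the 7 members. Tgfa, a growth factor gene, differed by -0.40, Fam136a by 0.26, Snrpg and Cct7 by 0.22 each, Sfxn5 by -0.19, Pradc1 by 0.16, Smyd5 and Tia1 by 0.14 each and Pcyox1 by -0.01, while Fbxo41 and Add2 were too low to be tested. Tprkb, which overlaps Nat8f1 on the other strand, differed by -0.03 ± 0.12, and Alms1, the neighbour beyond Nat8f7, by -0.21 ± 0.08. At the tested times, Nat8f4 fell by 0.42 on the log2 scale at ZT8 (limma, adjusted p 0.0144), when 6 members rose. By limma with Benjamini-Hochberg adjustment over all genes tested, the other calls were Pradc1 higher and Dusp11 and Tia1 lower at ZT0, Cct7 higher at ZT8, Cct7, Dusp11 and Fam136a higher at ZT12, Smyd5 and Dusp11 lower at ZT16, Dusp11 lower at ZT20, and Dusp11 and Fam136a lower at ZT24. Dusp11, a neighbour with a call at every tested time except ZT8, was higher at ZT12 by 0.26 ± 0.08 (adjusted p 0.0173) and lower at ZT20 by 0.44 ± 0.08 (adjusted p 0.000114).

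To ask whether the regimens differed at times that the choice did not use, DRF was compared with NRF at each of the other 6 times. The answer changed with the time of day. At ZT8, 6 of the 7 genes rose under DRF (limma, adjusted p under 0.05 over all genes tested), where 6.38% of all genes tested did. Nat8f5 was at 5.49, 12.7, 6.56 and 13.8 TPM under NRF and at 27.3, 41.0, 21.3 and 25.0 TPM under DRF. All 4 DRF kidneys exceeded all 4 NRF kidneys, and the difference was 1.53 ± 0.36 (adjusted p 0.0026). Nat8f6 rose by 1.51 ± 0.25 (adjusted p 1.8e-05), Nat8f3 by 1.13 ± 0.20 and Nat8f7 by 1.10 ± 0.20. Their sum differed by 1.37 ± 0.21, from 54.2 to 148 TPM under NRF to 205 to 320 TPM under DRF. Nat8f1 rose by 0.95 ± 0.18 (adjusted p 0.00014). Nat8 rose by 0.69 ± 0.22 (adjusted p 0.028), with groups that overlapped, a call that was lost when any of replicates 1, 2 or 3 was left out (adjusted p 0.133, 0.0669 and 0.178). Nat8f2 differed by -0.01 ± 0.21. The median over the 7 genes was 1.10, against -0.03 over all genes tested.

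At ZT12, the end of the light phase, 2 of the 7 genes rose under DRF, where 7.58% of all genes tested did. Nat8f5 reached its highest level of the study in these kidneys, with 112, 100, 136 and 112 TPM under DRF, and 20.2, 55.4, 41.0 and 60.9 TPM under NRF. The groups did not overlap and the difference was 1.46 ± 0.36 (limma, adjusted p 0.0032). Nat8f1 rose by 0.85 ± 0.18 (adjusted p 0.0005), from 323 to 512 TPM to 733 to 808 TPM. Nat8f6 with 0.65 ± 0.25 (adjusted p 0.057) and Nat8 with 0.55 ± 0.22 (adjusted p 0.076) did not pass the threshold. The NRF kidney with 20.2 TPM of Nat8f5 was also the library with the highest adipose markers, 2886 TPM summed over 6 genes. Without the libraries rich in those markers the difference of Nat8f5 at ZT12 kept a limma adjusted p of 0.0431. Across the alternative fits this adjusted p ran from 0.00048 to 0.14, so the call of Nat8f5 at ZT12 was not kept in all of them.

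During the dark phase the direction turned for a part of the cluster. At ZT16, Nat8f6 was the only member called, lower under DRF by 0.80 ± 0.25 (limma, adjusted p 0.044), where 3.35% of all genes tested were lower, and the call was lost under most alternatives. The summed level of Nat8f3, Nat8f6 and Nat8f7 differed by -0.68 ± 0.21 at ZT16, with groups that overlapped. Nat8f5 was at 66.6 to 90.1 TPM under NRF and 82.4 to 93.4 TPM under DRF and was not called (0.15 ± 0.36). At ZT20, 4 of the 7 genes fell under DRF, where 6.0% of all genes tested did. These were Nat8f6, which fell by 1.69 ± 0.25 (adjusted p 2.6e-06), Nat8f3, by 1.41 ± 0.20, Nat8f7, by 1.02 ± 0.20, and Nat8f1, by 0.79 ± 0.18 (adjusted p 0.0013). The summed level of Nat8f3, Nat8f6 and Nat8f7 was 234 to 370 TPM under NRF and 91.8 to 102 TPM under DRF, with no overlap. Nat8f5 had 46.6, 31.8, 54.3 and 41.9 TPM under NRF and 36.6, 15.96, 31.1 and 31.0 TPM under DRF, and with -0.63 ± 0.36 (adjusted p 0.24) it was not called.

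**Figure D3:**
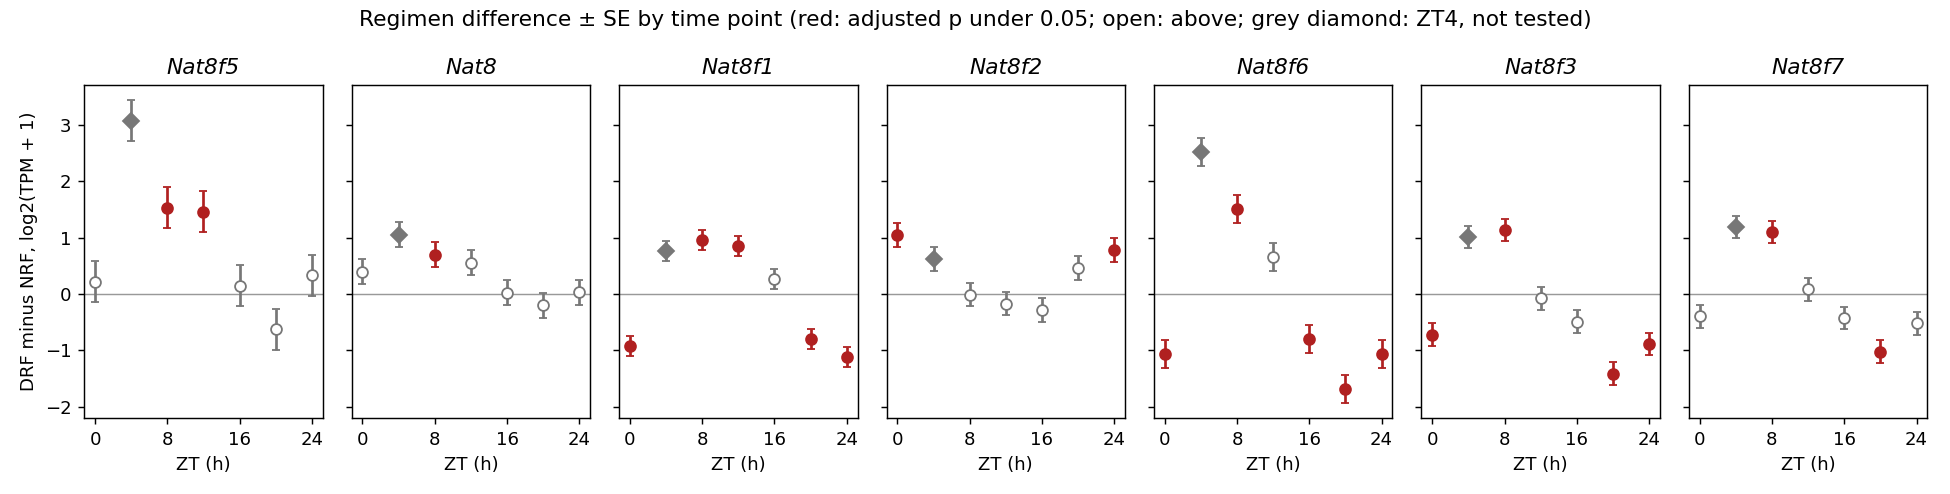
DRF minus NRF on the log2(TPM + 1) scale ± SE (vertical axis) by zeitgeber time in hours (horizontal axis) for each gene, with filled red circles where the limma adjusted p was under 0.05, open circles where it was not, and a grey diamond for ZT4, which was not tested. Nat8f5 is called at ZT8 and ZT12 only, and Nat8f6 turns from 1.51 at ZT8 to -1.69 at ZT20.

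Lights-on was sampled at ZT0 and again at ZT24, in separate mice. Nat8f1, Nat8f3 and Nat8f6 were lower under DRF at both times and Nat8f2 was higher. At ZT0 the share of all genes tested that fell was 8.14% and the share that rose was 8.93%. Nat8f1 fell by 0.91 ± 0.18 (limma adjusted p 0.00021), from 506 to 591 TPM to 255 to 329 TPM, and at ZT24 by 1.12 ± 0.18 (adjusted p 1.6e-05). Nat8f6 fell by 1.07 at ZT0 and by 1.06 at ZT24. Nat8f3 fell by 0.72 at ZT0 and by 0.89 at ZT24. Nat8f7 differed by -0.40 at ZT0 and -0.52 at ZT24 and was not called (limma, adjusted p 0.17 and 0.067). The summed level of Nat8f3, Nat8f6 and Nat8f7, which share split reads, differed by -0.82 ± 0.21 and -0.88 ± 0.21. The groups of that sum did not overlap at ZT0 or at ZT24. Nat8f2, whose peak lay at another time of day than those of its neighbours, rose by 1.05 at ZT0. Its levels there were 6.81 to 15.2 TPM under NRF and 21.5 to 25.9 TPM under DRF. At ZT24, where 10.1% of all genes tested fell and 4.91% rose, Nat8f2 rose by 0.78 (limma, adjusted p 0.007), with groups that overlapped. Nat8f5 was not called at either time (0.22 ± 0.36 and 0.34 ± 0.36). Without replicate 3, Nat8f3 and Nat8f6 lost the call at ZT0 (limma, adjusted p 0.062 and 0.0553), and without replicate 2, Nat8f2 lost it at ZT24 (0.061).

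Averaged over the day without ZT4, Nat8f5 was higher under DRF by 0.56 ± 0.15 (limma, adjusted p 0.015) and Nat8f3 was lower by 0.33 ± 0.08 (adjusted p 0.0088), where 3.1% of all genes tested rose and 5.96% fell. Both calls depended on single replicates, and that of Nat8f5 was lost without the libraries rich in adipose markers (0.44). The other 5 genes had mean differences between -0.28 and 0.26 and were not called. The summed level of Nat8f3, Nat8f6 and Nat8f7, which share split reads, had a mean difference of -0.24 ± 0.09.

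Changes between consecutive times within a regimen showed where each gene moved. Under NRF from ZT8 to ZT12, 5 of the 7 genes rose, where 1.41% of all genes tested did, with Nat8f5 up by 2.07 ± 0.36 (limma, adjusted p 0.00013) and Nat8f6 by 1.75 ± 0.25. From ZT12 to ZT16, as the dark phase and the food of NRF began, 4 rose further, where 11.3% of all genes tested did. Nat8f3 gained 1.19 ± 0.20, Nat8f6 1.05 ± 0.25, Nat8f5 0.95 ± 0.36 (adjusted p 0.045) and Nat8f7 0.77 ± 0.20. From ZT16 to ZT20, 3 genes fell, all of them genes that share split reads, where 2.98% of all genes tested did. Nat8f6 fell by 1.18, Nat8f7 by 0.91 and Nat8f3 by 0.75. From ZT20 to ZT24, 4 genes fell, where 0.329% did, with Nat8f5 falling by 1.69 ± 0.36 (adjusted p 0.0086). The 4 calls of that last step became 0 with the replicate number as a block, 0 to 2 with each replicate left out and 2 without the libraries rich in adipose markers, and Nat8f5 lost its call there without replicate 2 (adjusted p 0.0636) and with the block (0.0932). From ZT12 to ZT16, Nat8f5 lost the call without replicate 1, 3 or 4 and Nat8f7 without replicate 1, and from ZT16 to ZT20 Nat8f3 without replicate 3 or 4. Nat8 lost its call from ZT8 to ZT12 without replicate 2 or 3. Nat8f1 and Nat8f2 were called in none of these 4 steps under NRF. Nat8f3, Nat8f6 and Nat8f7, which share split reads, were called in all 4, so the counts take shared reads as separate genes. Their summed level changed by 1.56 ± 0.21, 1.01 ± 0.21, -1.07 ± 0.21 and -0.92 ± 0.21 on the log2 scale in the order of the steps.

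Under DRF the course of Nat8f5 had a low between 2 high levels. It rose from 10.8 to 27.4 TPM at ZT0 to 41.7 to 66.7 TPM at ZT4, came down to 21.3 to 41.0 TPM at ZT8 and rose again to 100 to 136 TPM at ZT12. The steps into and out of ZT4 were not tested. The rise from ZT8 to ZT12 was 2.001 ± 0.36 (limma, adjusted p 0.00018), and Nat8f6 (0.89 ± 0.25) and Nat8 (0.75 ± 0.22, adjusted p 0.024) rose with it, where 2.11% of all genes tested rose. Without replicate 3 or 4, Nat8f6 (adjusted p 0.215 and 0.117) and Nat8 (0.259 and 0.0864) lost that call, and Nat8 also without replicate 2 (0.0536). From ZT12 to ZT16 only Nat8f3 was called, with 0.78 ± 0.20 (limma, adjusted p 0.0051), where 5.01% of all genes tested rose. That call was lost without replicate 2 or 3 (0.0579 and 0.0503). Over the same step Nat8f6 changed by -0.40 ± 0.25 and Nat8f7 by 0.26 ± 0.20. The summed level of the 3 genes changed by -0.14 ± 0.21, with groups that overlapped. The call of Nat8f3 alone depends on how the shared reads were split. The largest common change came from ZT16 to ZT20, when 5 of the 7 genes fell, where 6.22% of all genes tested did. Nat8f6 fell by 2.06 on the log2 scale, Nat8f3 by 1.68, Nat8f5 by 1.66 ± 0.36 (adjusted p 0.00049), Nat8f7 by 1.51 and Nat8f1 by 0.65. The summed level of Nat8f3, Nat8f6 and Nat8f7, which share split reads, changed by -1.87 ± 0.21. Nat8f2 moved the other way, with a rise of 0.65 ± 0.21 (adjusted p 0.016), where 20.7% of all genes tested rose. The call of Nat8f1 was lost without replicate 3 (adjusted p 0.122) and that of Nat8f2 without replicate 1 or 3 (0.129 and 0.052). No member was called between ZT20 and ZT24 by limma, where 0.197% of all genes tested were, and 1 had an unadjusted p under 0.05.

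The same clock time 1 day apart gave no call. Between ZT0 and ZT24, none of the 7 genes was called under NRF or under DRF by limma, with 0 and 1 of them at an unadjusted p under 0.05. Of all genes tested, 0.675% were called in either direction under NRF and 0.0% under DRF. Nat8f5 differed by -0.10 ± 0.36 under NRF and by 0.02 ± 0.36 under DRF.

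To ask whether the genes kept a daily rhythm apart from the time that chose them, a 24-h cosine was fitted to the 24 libraries of each regimen without ZT4. All 7 genes were rhythmic under NRF and all 7 under DRF (limma, adjusted p under 0.05), where 51.6% and 42.7% of all genes tested were. Under NRF, Nat8f5 had an amplitude of 1.84 on the log2 scale with its peak at 16.4 h (adjusted p 1.6e-09), and Nat8, Nat8f6 and Nat8f7 peaked at 16.5, 16.5 and 16.4 h. Nat8f3 peaked at 17.4 h and Nat8f1 later, at 20.2 h. Nat8f2 had the lowest amplitude, 0.31, and peaked at 11.9 h, a call lost without replicate 1 or 3 (adjusted p 0.0537 and 0.0535). Under DRF the peak of Nat8f5 lay at 13.98 h with an amplitude of 1.49 (adjusted p 3.2e-07), and that of Nat8 at 13.9 h. Nat8f6, Nat8f1, Nat8f7 and Nat8f3 peaked between 12.2 and 12.9 h. Nat8f2 peaked at 1.84 h, in the early light phase.

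**Figure D4:**
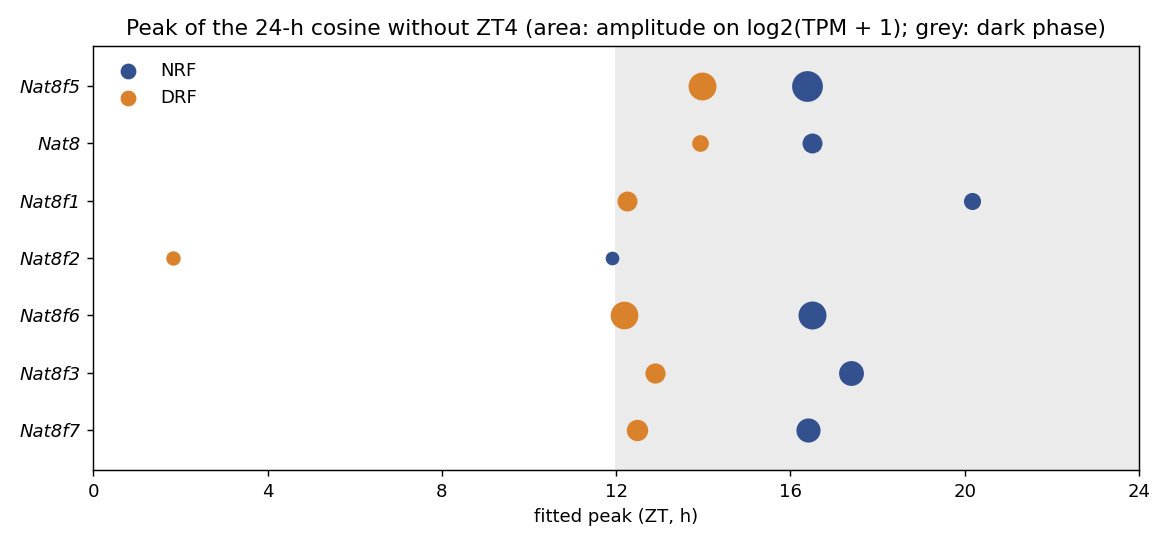
Peak of the 24-h cosine fitted without ZT4, in zeitgeber hours (horizontal axis), for each gene (vertical axis), with NRF in blue and DRF in orange and the area of a point proportional to the amplitude on the log2(TPM + 1) scale. Under DRF 6 genes peak between 12.2 and 13.98 h, earlier than under NRF, and Nat8f2 peaks at 1.84 h.

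The cosine of every member differed between the regimens when the difference itself was tested (limma, interaction of regimen with both cosine terms), where 43.5% of all genes tested did. The size of that difference, on the log2 scale, was 1.59 for Nat8f6 (adjusted p 8.2e-10), 1.12 for Nat8f3, 1.08 for Nat8f5 (adjusted p 0.00014), 1.06 for Nat8f1 (adjusted p 4.5e-12), 0.97 for Nat8f7, 0.63 for Nat8f2 and 0.46 for Nat8 (adjusted p 0.018). The call of Nat8 was lost when replicate 1 (adjusted p 0.236) or 3 (0.0859) was left out. With ZT4 put back, which is a description only, the DRF peaks moved earlier, to 12.7 h for Nat8f5 and 10.5 h for Nat8f6, and the amplitude of Nat8f5 was 1.14.

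The make-up of the cluster changed with time as well as its total. The summed level of the 7 genes was lowest under NRF at ZT8, with 592 ± 179 TPM (SD, n = 4), and highest at ZT16, with 1480 ± 307 TPM. Under DRF it was 569 ± 132 TPM at ZT24, 1494 ± 165 TPM at ZT4 and 1606 ± 101 TPM at ZT12. Nat8f1 made up the largest part in every group, from 37.7% at NRF ZT16 to 68.4% at NRF ZT4. Nat8f5 made up 0.906 ± 0.476% of the sum at NRF ZT4 and 3.67 ± 0.53% at DRF ZT4, and its largest share was 7.15 ± 0.50%, at DRF ZT12. Nat8f6 made up 6.32% at NRF ZT4 and 27.2% at NRF ZT16.

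**Figure D5:**
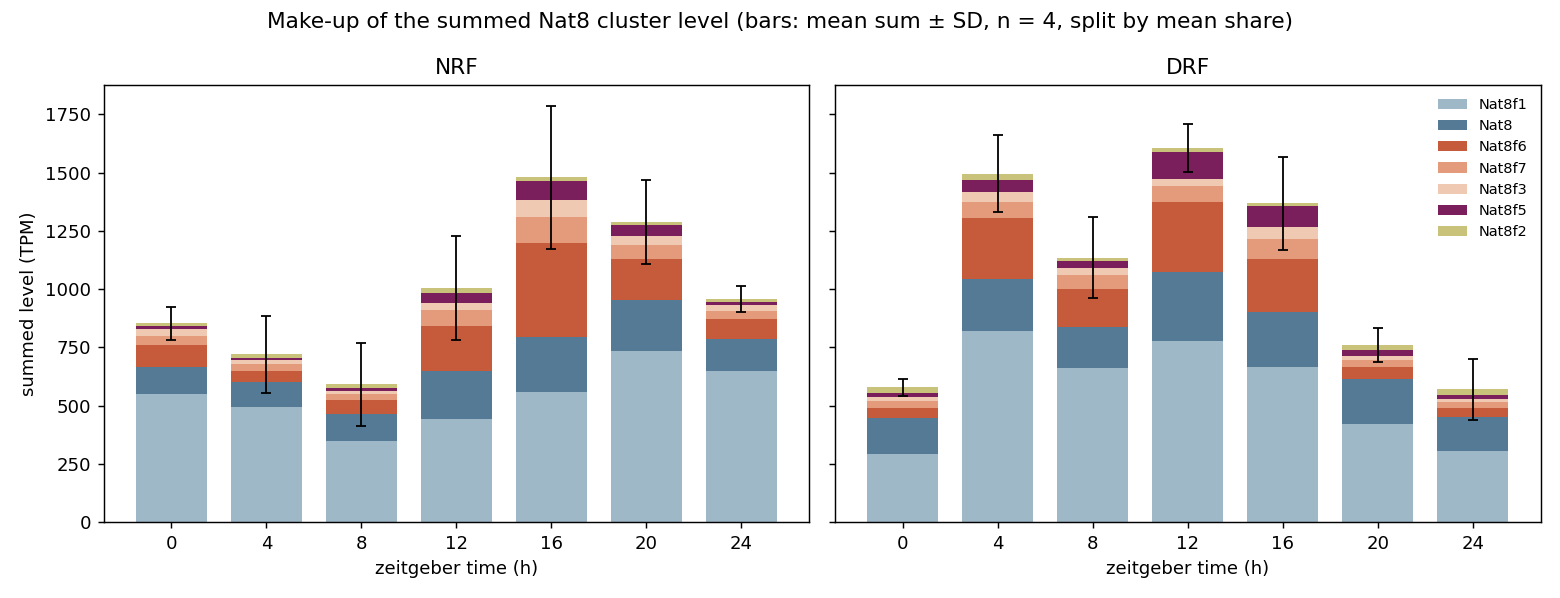
Summed level of the 7 genes in TPM (vertical axis) by zeitgeber time in hours (horizontal axis) under NRF and DRF, as the mean of 4 mice with error bars for the SD, each bar split by the mean share of each gene. The sum at DRF ZT4 is 1494 TPM and at NRF ZT4 720 TPM, and Nat8f1 is the largest part of every bar.

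Across the 14 group means of log2(TPM + 1), the members differed in how closely their courses matched. These correlations share libraries and are given as a description. Nat8f5 and Nat8 had a Pearson r of 0.97, the highest of any tested gene with Nat8f5, and it was also 0.97 over the 12 groups without ZT4. Nat8f6 and Nat8f7 with Nat8f5 gave 0.87 and 0.86, Nat8f3 0.72, Nat8f1 0.56 and Nat8f2 0.06. Nat8f6 with Nat8f7 gave 0.98, and those genes share split reads. The 5 genes outside the cluster most like Nat8f5 were Fbxw15 (0.94), an F-box gene of low level with a mean of 2.26 TPM, Tsc22d3 (0.93), a gene known to respond to glucocorticoids, Dynll2 (0.92), a dynein light chain, Mpc1 (0.90), a subunit of the mitochondrial pyruvate carrier, and Rasl12 (0.88). The 5 most like Nat8 were Fbxw15 (0.94), Fhit (0.89), Rasl12 (0.88), Mpc1 (0.88) and Tsc22d3 (0.86). Thus 4 genes stood in both lists, and none of them lies on chromosome 6. Both lists and the first place of Nat8 rest on all 14 groups, ZT4 included, and were not remade without ZT4. Without ZT4 the r with Nat8f5 was 0.94 for Fbxw15, 0.93 for Tsc22d3, 0.91 for Dynll2, 0.86 for Mpc1 and 0.89 for Rasl12.

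At ZT8 and ZT12, when members of the cluster rose, 0 of the 32 other tested genes of the mercapturate route were called higher by limma. With 6.38% and 7.58% of all genes tested called, few calls are expected among 32 genes, so nothing is read from that 0. The route begins with glutathione S-transferases, goes on with gamma-glutamyltransferases and dipeptidases that trim the glutathione part, and ends with NAT8, with aminoacylases that remove the acetyl group and transporters for organic anions beside it. Of 41 listed genes 32 were tested. At ZT8, 0 rose and 4 fell under DRF by limma, with 1 and 5 at an unadjusted p under 0.05, where 6.38% and 8.96% of all genes tested rose and fell. The 4 were glutathione S-transferases, Gstt2 (a fall of 0.53 on the log2 scale), Gsta4 (0.51), Gstt3 (0.31) and Gstm4 (0.24). At ZT12, 0 rose and 2 fell, Gstt2 by 0.66 and Gstm4 by 0.35, where 7.58% and 11.3% did. At ZT16, where 2.1% of all genes tested rose, Kyat1, a cysteine conjugate beta-lyase, rose by 0.40 and Gstt2 fell by 0.40. At ZT20, where 11.5% rose, Gstm4 rose by 0.42 and Kyat1 by 0.26, and Anpep, an aminopeptidase, fell by 0.25. At ZT24 Kyat1 rose by 0.26, while Gsta4 fell by 0.89 and Gsta3 by 0.56. At ZT0, 4 rose and 0 fell by limma, with 5 and 2 at an unadjusted p under 0.05, where 8.93% and 8.14% of all genes tested did. The 3 gamma-glutamyltransferase genes tested, which include Ggt1, the main enzyme of the brush border, and the 6 transporter genes had 0 calls at the 6 tested times. The median over the 32 genes was -0.02 at ZT8 and -0.04 at ZT12.

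The 250 bases upstream of Nat8f5 are shown because Nat8f5 had the largest difference of the cluster at ZT4 (RefSeq gene start, GRCm38.p6, minus strand, chr6:85820973-85821222). RefSeq places the start of Nat8f6 elsewhere, with its own upstream window at 85809878 to 85810127, which was 53.3% identical to that of Nat8f5 and 91.5% to that of Nat8f7. In GENCODE M21 the Nat8f6 span instead begins 18 bases from the Nat8f5 start. Capitals mark 2 motif matches.
Nat8f5 upstream: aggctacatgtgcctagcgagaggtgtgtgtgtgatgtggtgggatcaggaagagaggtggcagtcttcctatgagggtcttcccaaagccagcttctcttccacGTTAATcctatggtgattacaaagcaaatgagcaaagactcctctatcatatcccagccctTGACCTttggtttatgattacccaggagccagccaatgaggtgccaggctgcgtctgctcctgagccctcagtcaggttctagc
They are GTTAAT, an HNF1 half-site, at position -145 from the start, which 6.43% of 32851 promoters hold within the same length, and AGGTCA, a nuclear receptor half-site, on the opposite strand at -84, which 14.02% hold. AGGTCA also stood upstream of both start sites of Nat8f4, at -244 and -51, and GTTAAT upstream of start site 2 of Nat8, at -27. A role of these sites was not tested. Both strands were searched for 11 motifs in all. The E-box CACGTG (6.02% of promoters), the D-box TTANGTAA (2.06%) and the glucocorticoid response element core ACANNNTGT (5.84%) had no match in the Nat8f5 window.

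Markers of other cell types were set beside the difference at ZT4. The 8 markers of proximal tubule segments S1 and S2 that could be read summed to 5749 to 8438 TPM under NRF and 5127 to 6412 TPM under DRF, with a median difference of -0.31, and the 6 markers of segment S3 to 4074 to 6458 TPM and 4679 to 5612 TPM, with a median of -0.06. For each of these sums the NRF and DRF ranges overlapped at ZT4. In whole kidney, fewer cells of a type and less RNA per cell cannot be told apart. Markers of loop of Henle, collecting duct, podocytes and liver had medians between -0.16 and -0.13. Sums could differ from medians: at ZT4 collecting duct markers summed to 1086 to 1433 TPM under NRF and 1177 to 2195 TPM under DRF. Those of loop of Henle summed to 6340 to 7533 TPM under NRF and 5062 to 6969 TPM under DRF. Of the adrenal list 5 genes, Cyp11b1 and Cyp11b2 among them, were not in the table, and the other 4 summed to at most 6.99 TPM. Of the blood list only Alas2 could be read, at 16.1 to 38.1 TPM under NRF and 6.44 to 15.2 TPM under DRF at ZT4. Adipose markers summed to 0.242 to 2886 TPM over the libraries and were above 500 TPM in 7 libraries, 6 of NRF and 1 of DRF. At ZT4 they were at 0.659 to 782 TPM under NRF and 0.460 to 67.6 TPM under DRF. Without these 7 libraries, the calls at ZT8, ZT12 and ZT20 and the rhythm calls given above were the same in number. The part of any of these cell types in the results was not tested.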

How the data were processed

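Poly(A) RNA of whole kidney was sequenced as paired reads of 100 bases on a BGISEQ-500 (56 libraries). The submitters' processing notes name HISAT2, Bowtie2, RSEM and the builds mm10 and GRCm38.p6, with versions not given in the sources used here. The deposited values, called TPM by the authors, were treated as a score: each column sums to about 1e+06 (999145 to 999753), but the values followed a log2 of the reads divided by gene length.

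That relation was inferred from the values, with lengths from GENCODE M21. It gave a settled length for 90.0% of the 17027 genes, with 23150917 to 26435751 reads per library. In these genes 99.0% of values came out whole within 0.05 to 0.15 reads. A length was settled by whole values, in at least 50% at the annotated length or 90% at a searched length. The 99.0% is therefore largely fixed by that rule and is no separate check. Counting error was not modelled separately. TPM was recomputed on a linear scale. Genes with a settled length and a mean of at least 1 TPM were tested as log2(TPM + 1). The pseudocount of 1 understates changes of low genes. Nat8f3, Nat8f6 and Nat8f7 had whole reads in 5.36%, 7.14% and 23.2% of libraries, under the 50% rule, and were kept as members. Other genes without a settled length were left out of the tests and of the shares of all genes tested. The recovery was checked on simulated data.

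limma 3.58.1 in R 4.3.3 (trend, Benjamini-Hochberg adjustment over all tested genes per contrast, threshold 0.05) gave differences, steps and 24-h cosines. Differences and steps came from 1 fit over the 14 groups, with two-sided moderated t tests. The cosines came from separate fits with moderated F tests, without ZT4. These used the 24 libraries of each regimen and, for the interaction, 48 libraries. The log relation was expected from an earlier look at these data, and the design put recovered reads on a linear TPM scale before testing. No count test was run, since the deposited values are not counts and the reads of several members were fractional. Mice were housed in groups per the labels, so p-values measure the spread between these samples. 1 NRF column at ZT24 carries the number 5, which is in no sample title (titles run from 1 to 4), so it was placed in its group only and left out of the replicate block. Members and gene lists were chosen with earlier results of these data known. Genes were named by this rule: the 7 members, all table genes within 500 kb, mercapturate genes called from ZT8 to ZT24, and the 5 genes outside the cluster most correlated with Nat8f5 and with Nat8; Per2 and Manf were named after their values were seen. Sequences came from GENCODE M21 transcripts and RefSeq promoters with Python 3.11.15 and Biopython 1.88.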

Additional observations from a re-analysis of the deposited data

Results flagged for a closer look

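The 24-h cosine fitted without ZT4 differed between DRF and NRF in all 7 genes, by limma's test of the interaction with Benjamini-Hochberg adjustment over the 12157 genes tested, where 43.5% of genes were called. The difference was 1.59 on the log2 scale for Nat8f6 (adjusted p 8.2e-10), 1.12 for Nat8f3 (3.2e-06), 1.08 for Nat8f5 (0.00014), 1.06 for Nat8f1 (4.5e-12), 0.97 for Nat8f7 (2.2e-06), 0.63 for Nat8f2 (3.2e-05) and 0.46 for Nat8 (0.018). In 98 groups of 4 mice, 7 genes by 14 groups, 0 had a mouse that stood apart by Dixon's test, which chance would flag in about 1 of 20.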

How the results depend on the processing

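The alternatives were another scaling, log2(CPM + 1), a pseudocount of 0.1, no minimum or one of 5 TPM, the deposited values taken as TPM, fits on single times, ZT4 included, a replicate block and each replicate left out; the sum of Nat8f3, Nat8f6 and Nat8f7 and the fit without 7 libraries above 500 TPM of adipose markers were chosen after seeing the data. Of the counts of members called, 421 stayed within 1.5 times the main count and 38 did not; of single genes, 905 kept direction and side of the threshold, 84 lost the call and 5 turned. With the deposited values as TPM, a compressed scale by construction, the ZT4 differences were 0.29 (Nat8), 0.15 (Nat8f1), 0.33 (Nat8f3), 1.72 (Nat8f5), 0.65 (Nat8f6) and 0.39 (Nat8f7), 1 gene was higher at ZT12, and 0 were called lower at ZT16, lower from ZT20 to ZT24 under NRF, higher from ZT8 to ZT12 or from ZT16 to ZT20 under DRF, or higher in the mean. The 1 call lower at ZT16 became 0 with median-of-ratios scaling, log2(CPM + 1), no minimum, the 8 samples of that time alone, without the adipose-marked libraries and with each replicate left out. Without the adipose-marked libraries, 2 genes rose from ZT12 to ZT16 and 2 fell from ZT20 to ZT24 under NRF, and 0 were higher in the mean. Leaving out each replicate gave 1 to 3 genes lower at ZT0, 0 to 1 higher at ZT24, 2 to 4 higher from ZT12 to ZT16 and 0 to 2 lower from ZT20 to ZT24 under NRF, 1 to 3 higher from ZT8 to ZT12, 0 to 1 higher from ZT12 to ZT16 and 0 to 1 higher from ZT16 to ZT20 under DRF, and 0 to 1 higher and 0 to 2 lower in the mean; Nat8f5 ranged from -0.028 to 0.42 at ZT0 and from -0.43 to 0.52 between ZT0 and ZT24 under DRF, which was -0.0071 with the deposited values. The replicate block gave 0 genes lower from ZT20 to ZT24 under NRF and 0.15 for Nat8f5 between ZT0 and ZT24 under NRF, where the main value was -0.10. The numbers did not pair the samples: over 351 pairs of same-numbered mice the mean correlation of deviations was 0.01 (-0.785 to 0.757), so the block is no paired analysis. The causes were not tested. Over all genes the count called ranged over the alternatives from 886 to 2405 at ZT8 (main 1865), 1194 to 2927 at ZT12 (2292), 158 to 947 at ZT16 (662), 775 to 2700 at ZT20 (2128), 1134 to 2633 at ZT0 (2075) and 861 to 2171 at ZT24 (1827). Depth limits Nat8f5 most, with 10 reads in its lowest library.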
